A study of Mus musculus with 4 samples.

Results

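The genes described here are 10 regulators and target genes of p53, namely Mdm2, Mdm4, Cdkn1a, Btg2, Ccng1, Apaf1, Perp, Zmat3, Rrm2b and Sesn1. They were picked by name from the gene column of the array files, with letter case ignored. The list of names was chosen with earlier results of these data known. They made up 10 of the 18700 gene names and 36 of the 170305 probes on the array. DNA from 4 liver tumours of mice without Fah and without p53 (genotype FAH-/-, Trp53-/-; tumours 239, 240, 244 and 252) was measured by array comparative genomic hybridisation. Each tumour carried Cy5 and was set against 1 Cy3-labelled pool of DNA from the livers of 3 wild-type littermates (FAH+/+, Trp53+/+). All animals were labelled male, and no ages are given in the sources used. Fah encodes the last enzyme of tyrosine breakdown, and mice without it are kept alive by NTBC, which inhibits an enzyme upstream in that breakdown. The drug was normally given at 7.5 mg/L in drinking water, and the regimen before sampling was 2.5% of that dose for 6 months. All 4 tumours lacked Trp53, so none shows these genes in tumours with p53, and the share of tumour cells in each piece of tissue was not measured. DNA holds no markers of tissue, so the labelled tissue could not be checked.

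The p53 protein is a transcription factor that is switched on by DNA damage and other stress. It turns on genes that stop the cell cycle, start cell death, and supply or protect DNA and its building blocks. Mdm2 and Mdm4 hold p53 in check: Mdm2 marks it for breakdown, and Mdm4 binds it and blocks its activity. Loss of p53 and gain of Mdm2 or Mdm4 are known from human cancers. The arrays measured the copy number of these genes, not their expression.

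Probes are 60 bases long or slightly shorter, and a gene's level is the mean of its own probes. The 7 probes below lie between other probes of the same gene. They are, among such probes, the highest and the lowest of Mdm4, Apaf1 and Sesn1 against their surroundings, and the only one of Rrm2b. They are shown because the spread between probes of 1 gene is part of every gene level given below. Positions are those of the mouse build mm9 as the array files give them. The files do not state the strand or whether a probe lies in an exon or an intron. Capitals mark G and C.
Mdm4, chr1:134907508-134907567, higher: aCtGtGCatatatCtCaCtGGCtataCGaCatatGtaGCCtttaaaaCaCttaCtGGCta
Mdm4, chr1:134913882-134913941, lower: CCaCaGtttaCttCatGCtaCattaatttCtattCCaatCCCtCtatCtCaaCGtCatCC
Apaf1, chr10:90469061-90469120, higher: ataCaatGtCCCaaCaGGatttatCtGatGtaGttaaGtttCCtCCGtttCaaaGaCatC
Apaf1, chr10:90513052-90513111, lower: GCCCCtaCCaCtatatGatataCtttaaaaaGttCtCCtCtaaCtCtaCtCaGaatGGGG
Rrm2b, chr15:37874586-37874645, higher: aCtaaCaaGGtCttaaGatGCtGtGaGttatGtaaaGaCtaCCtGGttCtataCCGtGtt
Sesn1, chr10:41567534-41567593, higher: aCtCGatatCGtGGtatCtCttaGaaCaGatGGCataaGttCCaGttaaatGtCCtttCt
Sesn1, chr10:41592378-41592437, lower: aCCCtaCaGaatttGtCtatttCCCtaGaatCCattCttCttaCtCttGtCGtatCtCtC
The pair from Mdm4 held 23 G or C bases each, and the pair from Sesn1 likewise held 23 each, although the members of each pair differed in level.

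Each value is the log2 of tumour over pool signal, centred on the median of each array's autosomal probes. For diploid cells that all gained 1 copy the ratio would be 0.58, and for cells that all lost 1 copy -1. In each colour 98.8% to 99.9% of spots were well above background. The 2 Trp53 probes gave 0.09, 0.08, 0.06 and 0.07 in tumours 239, 240, 244 and 252, and the 2 Fah probes gave 0.30, 0.02, -0.19 and 0.05. Which part of either gene is deleted was not stated, so these probes do not check the genotype. Tumour 252 went against its label: its median was 0.73 on X and -2.43 on Y, against -0.30 to -0.09 on X and -1.20 to -0.14 on Y in the other tumours. The library labelled 252 was kept, and the counts of called members, probes and pathway genes are also given without it. Calls of single probes and counts by role are given only with it. Tumour 244 stood apart in the size of its regional shifts: the neighbourhoods of 20.1% of all genes lay at or above 0.2 and of 26.4% at or below -0.2, against at most 4.26% and 4.47% in the other tumours.

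Each member was read in 3 ways. Its own level was set against 0, the level of the probes within 1 Mb of it (its own probes left out, the neighbourhood) was set against 0, and its own level was set against the neighbourhood. Each was tested with limma over all autosomal genes, with Benjamini-Hochberg adjustment at 0.05. Nothing says whether the tumours came from separate animals beyond their numbers, and the pool is a single control sample, so the p-values measure only the spread between these 4 tumours.

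Of the 10 members, 1 lay in a region that differed from the pool over all 4 tumours, Rrm2b on chromosome 15, which was higher. By their own probes, 5 members differed from the pool: Btg2, Rrm2b, Perp and Zmat3 were higher and Cdkn1a was lower. Over all genes, 11.2% passed the test of the neighbourhood (6.46% higher, 4.77% lower) and 38.8% the test of the gene's own level (21.2% higher, 17.7% lower). With normexp the own level of 4 members passed, 2 higher and 2 lower, with 48.1% of all genes. The median of the members' own levels was 0.09, against 0.02 over all genes, and the median of their neighbourhoods was 0.00, against 0.01. Among genes with 1 probe, which Btg2, Cdkn1a, Ccng1 and Perp are, 50.1% passed the test of the gene's own level. Against the neighbourhood, the same 5 members passed, 4 higher and 1 lower, with 48.7% of all genes (25.8% higher, 22.9% lower) and 56.6% of those with 1 probe passing. Without tumour 252, the test of the gene's own level called 5 members and 26% of all genes, and the test against the neighbourhood called 4 and 32.2%.

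**Figure D1:**
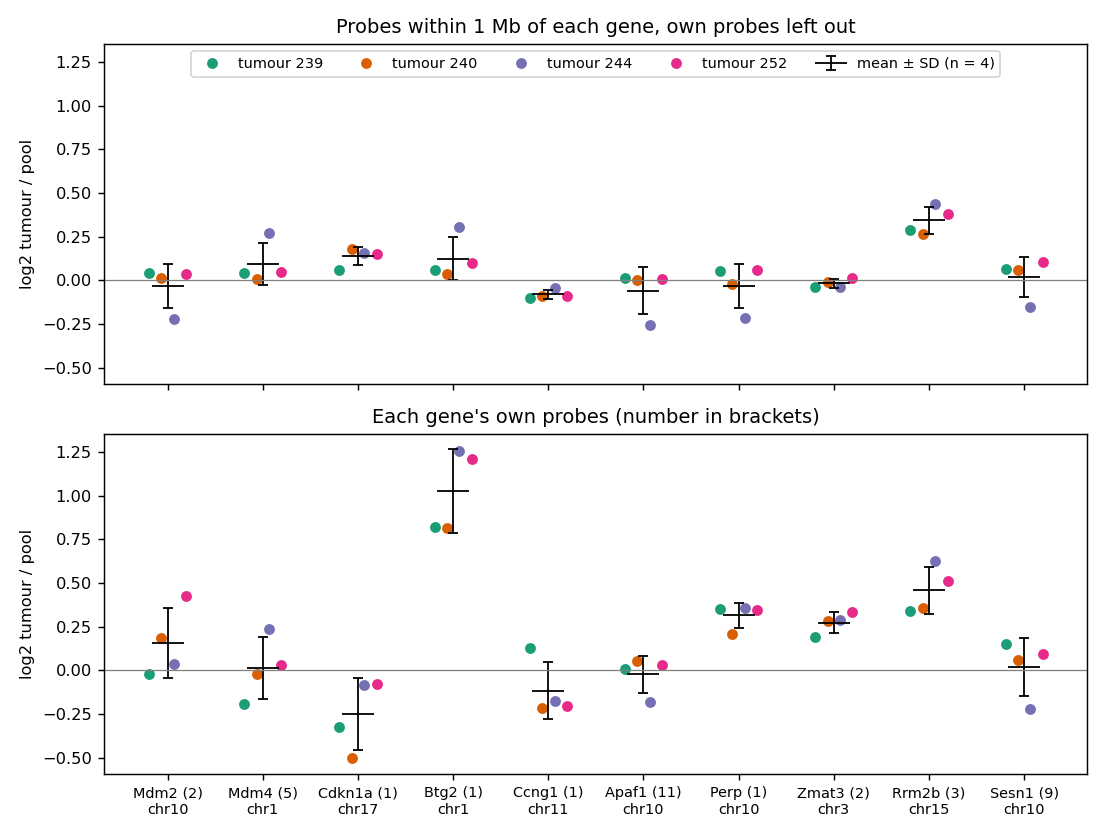
Log2 ratio of tumour over pool for the probes within 1 Mb of each member (top) and for the member's own probes (bottom). Points are the 4 tumours and bars are mean ± SD, with the chromosome under each name. Only the Rrm2b neighbourhood lay above 0.2 in every tumour, and the Btg2 probe lay highest among the genes' own levels.

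Of the inhibitors, neither gene passed the test against the pool or against its neighbourhood. Mdm2, the ubiquitin ligase that targets p53, lies on chromosome 10 and had 2 probes at 117126240 to 117145626. Its own level was -0.02, 0.18, 0.03 and 0.43 in tumours 239, 240, 244 and 252. Its 130 neighbouring probes averaged 0.04, 0.01, -0.22 and 0.04. Tumour 252 was highest by the gene's own probes and tumour 244 lowest by the neighbourhood. The mean of the gene was 0.16 ± 0.20 (SD, n = 4; limma adjusted p = 0.145), and it stood 0.19 ± 0.19 above the neighbourhood (adjusted p = 0.0749). Without tumour 252 these were 0.07 and 0.12 (adjusted p = 0.607 and 0.234). The difference passed without tumour 239 (0.27, adjusted p = 0.00907) and against the whole chromosome (0.23, adjusted p = 0.0394). Its probes disagreed: the one at 117126240 lay 0.44 above the neighbourhood and the one at 117145567 lay -0.06 from it. The first had a pool signal of 192, against array medians of 916 to 938. With normexp, a background correction that here started from the unprocessed mean signals, the sign turned. It was -0.25 for the gene (adjusted p = 0.0103) and -0.22 against the neighbourhood (adjusted p = 0.00595). The nearest gene before it with 3 or more probes, Cpm, differed from it by 0.12 on average over the tumours, and the nearest after it, Nup107, by 0.25.

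Mdm4, the p53-binding inhibitor, lies on chromosome 1 and had 5 probes at 134888882 to 134926474. By its own probes the gene read -0.20, -0.02, 0.24 and 0.03, and its 163 neighbouring probes averaged 0.04, 0.00, 0.27 and 0.05. Tumour 244 was highest by both, and its neighbourhood did not overlap the other 3. Over the 4 tumours the gene averaged 0.01 ± 0.18 (limma adjusted p = 0.917) and its neighbourhood 0.09 ± 0.12 (adjusted p = 0.270). The gene lay -0.08 ± 0.10 from the neighbourhood (adjusted p = 0.208), mostly through tumour 239 at -0.23, while the other 3 lay between -0.03 and -0.02. With a window of 0.25 Mb this difference became -0.16 and passed (adjusted p = 0.0235). The nearest genes, Lrrn2 before it and Pik3c2b after it, differed from Mdm4 by 0.33 and 0.19 on average.

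Of the genes that slow or stop the cell cycle, Btg2 was higher than the pool, Cdkn1a was lower and Ccng1 did not pass. All 3 rest on 1 probe. Btg2, an antiproliferative gene, lies on chromosome 1 at 135972110 to 135972169. Its probe read 0.82, 0.81, 1.25 and 1.21, a mean of 1.02 ± 0.24 or 2.03 times the pool (limma adjusted p = 4.24e-05). Its 171 neighbouring probes averaged 0.06, 0.04, 0.30 and 0.10, so every tumour's probe lay above its neighbourhood, by 0.90 ± 0.17 (adjusted p = 0.000592). The surrounding probes did not share that level: those 10.8 kb before and 9.2 kb after it averaged -0.04 and 0.19, and the next on either side 0.25 and 0.62. Of 6338 genes with 1 probe, 24 stood as far or farther above their neighbourhood, as did 0 of 4299 genes with 6 or more. The Btg2 probe had a pool signal of 230. With normexp its level was 0.23 and its difference from the neighbourhood 0.22, still past the test (adjusted p = 0.0479 and 0.0149). The nearest gene after it, Chit1, differed from it by 0.64 on average. Mdm4 and Btg2 lie 1064 kb apart and share 69 neighbouring probes, so their neighbourhoods are not separate measurements.

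Cdkn1a, which encodes the cyclin-dependent kinase inhibitor p21, lies on chromosome 17 at 29235110 to 29235166. Its probe read -0.33, -0.50, -0.09 and -0.08, below 0 in 4 of 4 tumours, with a mean of -0.25 ± 0.21 (limma adjusted p = 0.0331). Its 207 neighbouring probes averaged 0.06, 0.18, 0.16 and 0.15. Tumours 239 and 240 were the lowest by the probe, and no tumour's probe reached its neighbourhood. The difference was -0.39 ± 0.21 (adjusted p = 0.0106), with a neighbourhood mean of 0.14 ± 0.05 (adjusted p = 0.0513). The call of the gene's own level was lost with normexp (-0.10, adjusted p = 0.311), with an intensity trend removed by lowess (-0.22, adjusted p = 0.0672), and without tumour 239 or 240 (-0.22 and -0.16, adjusted p = 0.0742 and 0.191). Against the neighbourhood, the call was lost with normexp (-0.18, adjusted p = 0.0959). Probes close by also varied: the one 9.3 kb before it averaged 0.38, and those 20.1 kb before and 19.6 kb after it -0.20 and -0.24. The nearest genes were Trp53cor1, the p53-induced long noncoding RNA beside Cdkn1a, and Cpne5. They averaged 0.09 and 0.11 and differed from Cdkn1a by 0.34 and 0.36.

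Ccng1, cyclin G1, lies on chromosome 11 at 40566198 to 40566257. Its probe read 0.12, -0.22, -0.17 and -0.20, and its 75 neighbouring probes -0.10, -0.09, -0.04 and -0.09. Tumour 239 was the only one above 0 by the gene's probe and lay apart from the other 3. The mean of -0.12 ± 0.16 did not pass (limma adjusted p = 0.225), and neither did the difference of -0.04 ± 0.18 from the neighbourhood (adjusted p = 0.688). Without tumour 239 that difference was -0.12 and passed (adjusted p = 0.0240), and with normexp it was 0.17 and passed (adjusted p = 0.0273). Hmmr, the nearest gene before it, differed from it by 0.29.

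Of the genes of cell death, Perp and Zmat3 were higher than the pool and than their neighbourhoods, and Apaf1, with the most probes, passed neither test. Apaf1, the core of the apoptosome that activates caspase 9, lies on chromosome 10 and had 11 probes at 90458576 to 90543603. Its own level was 0.00, 0.05, -0.18 and 0.03, and its 136 neighbouring probes averaged 0.02, 0.00, -0.26 and 0.00. Tumour 244 was lowest by both, and the other 3 lay between 0.00 and 0.05. The gene averaged -0.02 ± 0.11 (limma adjusted p = 0.795) and differed from its neighbourhood by 0.04 ± 0.04 (adjusted p = 0.391). With normexp that difference was 0.10 and passed (adjusted p = 0.0314). The nearest gene before it, Anks1b, with 110 probes, differed from Apaf1 by 0.02 on average, the closest match of any member to a nearest gene. Rmst, after it, differed by 0.24.

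Perp, a membrane protein of cell junctions that takes part in p53-dependent death, lies on chromosome 10 at 18567659 to 18567718. Its 1 probe read 0.35, 0.21, 0.36 and 0.34, and its 141 neighbouring probes 0.05, -0.02, -0.21 and 0.06. The probe was above 0 in 4 of 4 tumours, and the low neighbourhood of tumour 244 was not mirrored by it. The mean was 0.31 ± 0.07 (limma adjusted p = 0.00312), or 0.35 ± 0.15 above the neighbourhood (adjusted p = 0.00648). With normexp both signs turned and both passed, at -0.32 (adjusted p = 0.00112) and -0.19 (adjusted p = 0.00816). The direction of Perp thus depended on the processing, and which step turned it was not tested. With lowess the level was 0.17 (adjusted p = 0.0588). The pool signal of this probe was 311. The nearest genes, 4930444F02Rik and Gm20139, differed from Perp by 0.19 and 0.36.

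Zmat3, an RNA-binding zinc finger protein, lies on chromosome 3 and had 2 probes at 32242790 to 32262799. The gene read 0.19, 0.28, 0.29 and 0.33, and its 132 neighbouring probes averaged -0.04, -0.01, -0.04 and 0.02. The gene lay above its neighbourhood in 4 of 4 tumours, with no overlap. The mean was 0.27 ± 0.06 (limma adjusted p = 0.00586), and 0.29 ± 0.05 above the neighbourhood (adjusted p = 0.00188). The probe at 32242790, with a pool signal of 336, lay 0.48 above the neighbourhood. The one at 32262740, with a pool signal of 1249, lay 0.10 above it and did not pass (adjusted p = 0.207). With normexp the gene's own level was 0.04 (adjusted p = 0.568). Kcnmb2, the nearest gene before it, with 29 probes, averaged 0.04 and differed from Zmat3 by 0.23. The nearest entries before Btg2, after Ccng1 and after Zmat3 carry only transcript identifiers in the files and differed from these genes by 0.95, 0.23 and 0.66.

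Of the genes of DNA supply and stress defence, Rrm2b was higher together with its region, and Sesn1 passed the test neither against the pool nor against its neighbourhood. Rrm2b, the p53-induced subunit of ribonucleotide reductase that supplies nucleotides for DNA repair, lies on chromosome 15 and had 3 probes at 37867704 to 37884066. Its own level was 0.34, 0.36, 0.62 and 0.51, a mean of 0.46 ± 0.13 or 1.37 times the pool (limma adjusted p = 0.000821). Its 151 neighbouring probes averaged 0.29, 0.26, 0.44 and 0.38, a mean of 0.34 ± 0.08 or 1.27 times the pool (adjusted p = 0.0101). All 4 tumours were above 0.2 by both, tumour 244 highest. The shift was wider than the window: the mean of chromosome 15 was 0.23, 0.15, 0.35 and 0.28, and the probes within 5 Mb averaged 0.26. Ncald, the nearest gene before it, with 41 probes, averaged 0.34 and differed from Rrm2b by 0.12. Over the 4 tumours these means lay below the 0.58 of a single-copy gain in every diploid cell, while Rrm2b's own level in tumour 244, 0.62, lay above it.

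The call of the Rrm2b neighbourhood depended on which tumours entered. It was 0.36 without tumour 239 (limma adjusted p = 0.0757) and 0.33 without tumour 252 (adjusted p = 0.0674). In those 2 fits limma called 0 of the 10 neighbourhoods and 0% of all genes. In each, 2 of the 10 members had an unadjusted p under 0.05. Over all genes, 22.1% did so without tumour 239 and 20% without tumour 252. Without tumour 240 or 244 the Rrm2b neighbourhood was 0.37 and 0.31 and passed (adjusted p = 0.00820 and 0.000544). The gene stood 0.12 ± 0.06 above its neighbourhood (adjusted p = 0.0387), in 4 of 4 tumours. That excess was lost without tumour 240, 244 or 252 (adjusted p = 0.0969, 0.156 and 0.126), with lowess (0.05, adjusted p = 0.280) and with the median of the neighbours (0.09, adjusted p = 0.0792). With normexp it was -0.06 (adjusted p = 0.107), while the neighbourhood stayed at 0.31.

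Sesn1, a sestrin that restrains mTORC1 and takes part in defence against oxidants, lies on chromosome 10 and had 9 probes at 41534603 to 41620419. The mean of these probes was 0.15, 0.06, -0.22 and 0.09, and its 165 neighbouring probes averaged 0.06, 0.06, -0.15 and 0.10. Tumour 244 was the only one below 0 by both. The gene averaged 0.02 ± 0.17 (limma adjusted p = 0.847) and lay 0.00 ± 0.07 from the neighbourhood (adjusted p = 0.957). The nearest genes, Cep57l1 and Armc2, differed from Sesn1 by 0.07 and 0.08 on average.

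**Figure D2:**
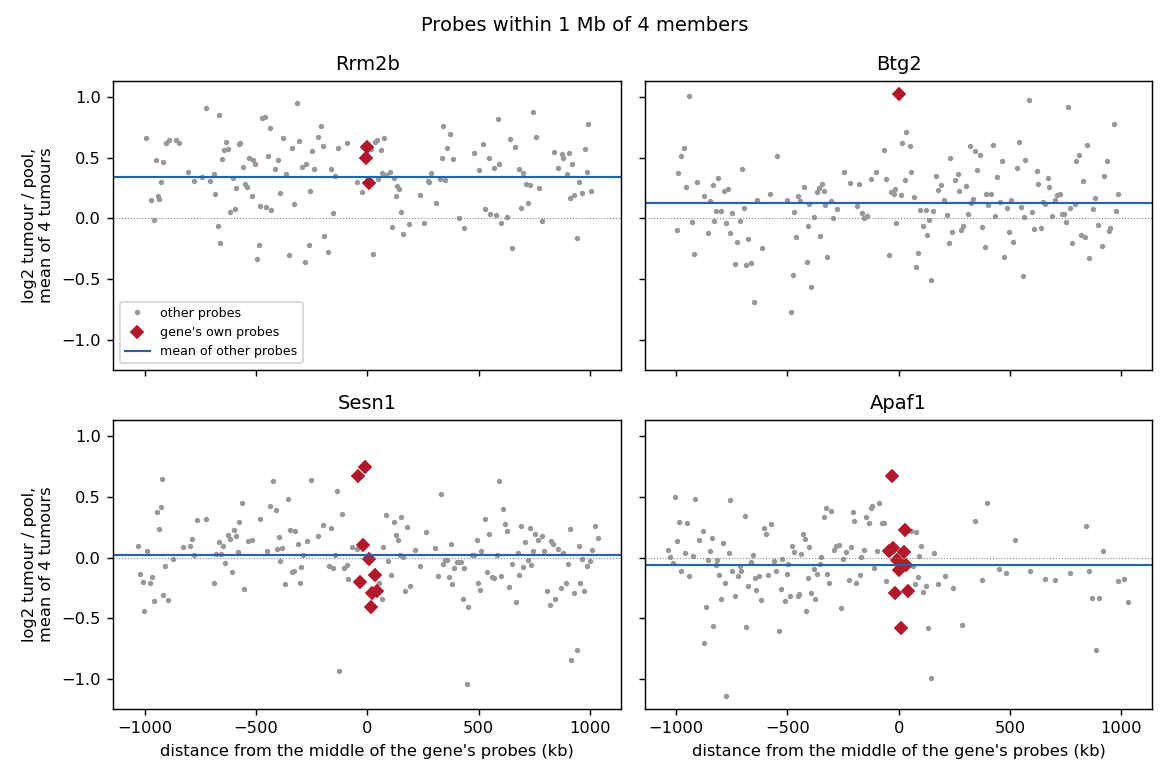
Mean log2 ratio of tumour over pool over the 4 tumours for probes around Rrm2b, Btg2, Sesn1 and Apaf1, against the distance from the middle of the gene's probes in kb. Diamonds are the gene's own probes, dots the other probes within 1 Mb, and the line their mean. The Rrm2b surroundings are shifted to a mean of 0.34, the single Btg2 probe stands above surroundings with a mean of 0.12, and the probes of Sesn1 and Apaf1 scatter on both sides of their surroundings.

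In tumour 244 the neighbourhoods of members on chromosomes 1 and 10 stood apart from the other tumours. The mean of chromosome 10 in this tumour was -0.25, against -0.03 to 0.00 in the other 3, and that of chromosome 1 was 0.21, against -0.06 to -0.01. Of the 4 members on chromosome 10, the neighbourhoods of Mdm2, Apaf1 and Perp lay at or below -0.2 in tumour 244, and that of Sesn1 was -0.15. On chromosome 1, the neighbourhoods of Mdm4 and Btg2 were 0.27 and 0.30. With Rrm2b, 3 of 10 neighbourhoods were thus at or above 0.2 and 3 at or below -0.2 in this tumour. Over all genes these shares were 20.1% and 26.4%, so the members were near the general share. In each of the other 3 tumours, 1 of 10 was at or above 0.2, Rrm2b, and none at or below -0.2. Over all genes at most 4.26% and 4.47% were. The values of tumour 244 are those of 1 tumour, with no replicate, and these counts were not tested.

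The genes' own probes were then set beside these regional shifts. Against the mean of the other 3 tumours, tumour 244 differed by 0.30 in Mdm4 and by 0.24 in its neighbourhood. In Apaf1 the differences were -0.21 and -0.26, in Sesn1 -0.32 and -0.23, and in Rrm2b 0.22 and 0.13. Among members with 1 or 2 probes, Btg2 differed by 0.31 and its neighbourhood by 0.24, and Mdm2 by -0.16 and -0.25. Perp, at 0.06 and -0.24, went against its neighbourhood. Over all 4 tumours, the median gap between such differences of a gene and of its neighbourhood was 0.06 for members with 3 or more probes and 0.12 for the rest. Over all genes these medians were 0.05 and 0.10.

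**Figure D3:**
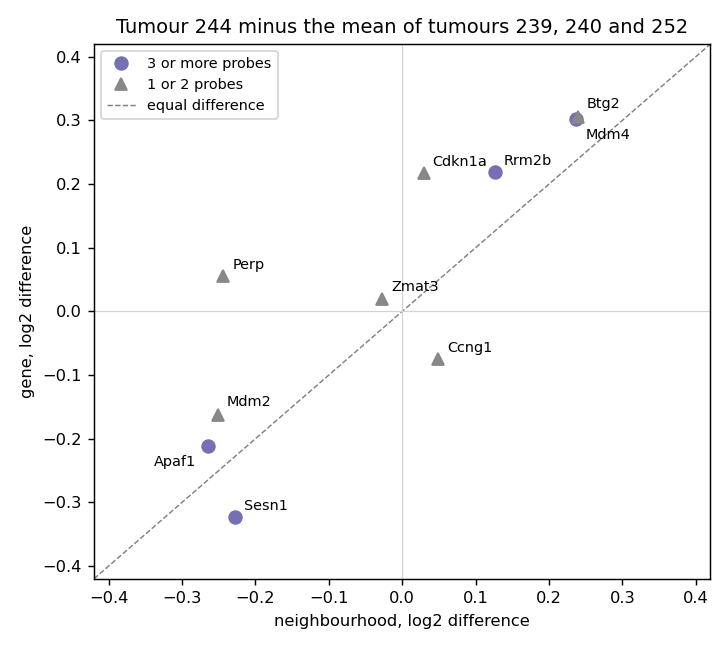
Tumour 244 minus the mean of tumours 239, 240 and 252, on the log2 scale, for each member's neighbourhood (horizontal) and its own probes (vertical). Circles are genes with 3 or more probes, triangles those with 1 or 2, and the dashed line marks equal differences. Mdm4, Btg2 and Rrm2b lie at the upper right, Mdm2, Apaf1 and Sesn1 at the lower left, and Perp lies off the line at 0.06 against -0.24.

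Omitting tumour 244 also moved the tests of the neighbourhoods. Without it, 5 of 10 passed, 4 higher and 1 lower, but so did 39% of all genes. The neighbourhoods were then 0.31 for Rrm2b, 0.13 for Cdkn1a (limma adjusted p = 0.00754), 0.06 for Btg2 (adjusted p = 0.0420), 0.07 for Sesn1 (adjusted p = 0.0225) and -0.09 for Ccng1 (adjusted p = 0.00791). The means of the Mdm2, Perp and Apaf1 neighbourhoods turned from -0.03, -0.03 and -0.06 to 0.03, 0.03 and 0.01, none of which passed.

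Probes of the same gene spread to both sides of the neighbourhood. Of the 36 probes, 21 differed from their neighbourhood (limma adjusted p under 0.05), 11 higher and 10 lower, and 53.6% of all autosomal probes did so, 28.1% higher and 25.4% lower. Without tumour 252, 15 of the 36 and 41.2% of all did. In Apaf1, 2 probes were higher and 3 lower, over a range from -0.52 to 0.73. In Sesn1, 2 were higher and 4 lower, from -0.43 to 0.73, and in Mdm4, 1 was higher and 2 lower, from -0.49 to 0.25. The extremes of each gene are among the sequences printed above. In Rrm2b, 2 of 3 probes were higher, and the third lay -0.05 from the neighbourhood.

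The offsets of some single probes recurred from tumour to tumour. The lowest Apaf1 probe read -0.51, -0.52, -0.48 and -0.57 from its neighbourhood, and the highest 0.32, 0.87, 0.91 and 0.82. The lowest Mdm4 probe read -0.64, -0.35, -0.51 and -0.44. All 4 ratios share 1 pool, so these recurrences are not independent of each other. The highest Sesn1 probe read 0.53, 1.12, 0.57 and 0.69 and had a pool signal of 122, the lowest of the 36. It was well above background in both colours on 2 of 4 arrays, and the other 35 on all 4. With probes kept only where well above background on all arrays, the Sesn1 mean was -0.07, and -0.09 against the neighbourhood, neither past the test (adjusted p = 0.503 and 0.122).

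**Figure D4:**
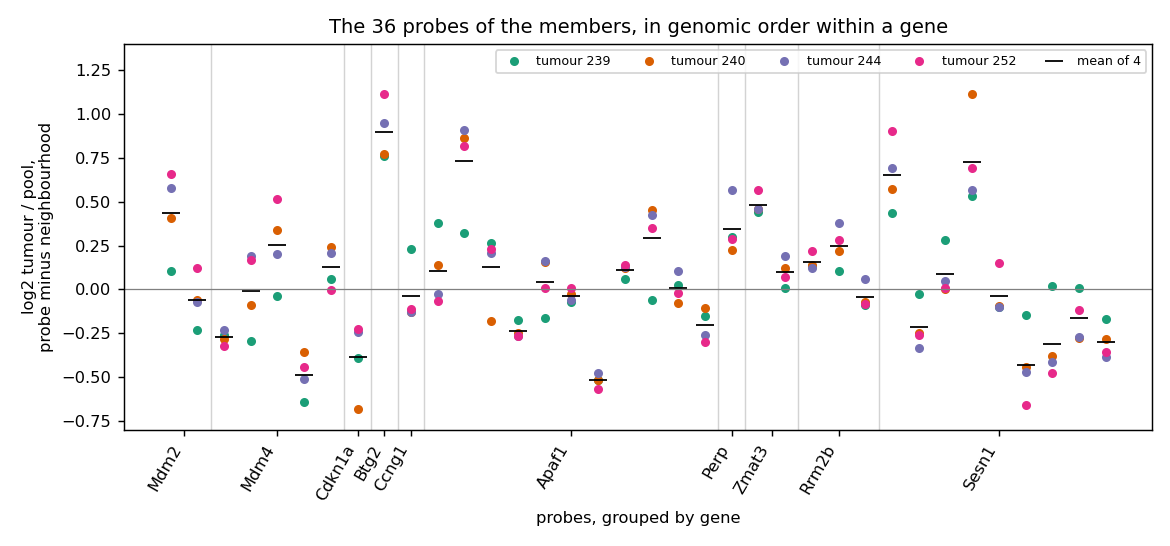
Log2 ratio of each of the 36 probes minus the mean of its neighbourhood, grouped by gene and in genomic order within a gene. Points are the 4 tumours and the bar their mean. Probes of Apaf1, Sesn1 and Mdm4 lie on both sides of 0.

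Signal moved with these offsets and base composition hardly did. The 36 probes held 31.7% to 40.0% G and C. Over them, the correlation of the offset with G and C content was -0.01, and with the log2 mean signal of both colours -0.69. Over all 161292 autosomal probes with a neighbourhood these were -0.05 and -0.32. With the pool signal alone they were -0.75 and -0.45, but the pool is also the denominator of the ratio. Probes share the arrays and the pool, so these correlations only describe them. The probes of Btg2 and Perp and the higher probes of Mdm2 and Zmat3 had pool signals of 192 to 336. The part of signal in their levels was not tested.

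Of 44 other genes of the p53 pathway, 36 had an autosomal probe. By their own level 10 of these differed from the pool, 3 higher and 7 lower. Against the neighbourhood 13 did, 2 higher and 11 lower. Over all genes 38.8% passed by their own level (21.2% higher, 17.7% lower). Against the neighbourhood 48.7% of all genes did (25.8% higher, 22.9% lower). The median difference of the 36 from the neighbourhood was -0.07, against 0.01 over all genes and 0.08 over the 10 members. By role, 6 of 10 genes of repair and metabolism were lower than their neighbourhood, against 22.9% of all genes. Of these 6, Sesn2, Ddb2 and Polh did not keep that call with normexp, and Polk did not with the median of its probes, as given below. Of 14 regulators 1 was higher and 3 lower, of 8 death genes 1 was higher and 1 lower, and of 4 arrest genes 1 was lower. Without tumour 252, 7 of the 36 were called by their own level and 10 against the neighbourhood, with 26% and 32.2% of all genes. Without tumour 240 the count against the neighbourhood was 7, with 32.7% of all genes, and with normexp it was 21, 10 higher and 11 lower, with 61.6%. By their own level 17 were called with normexp, 7 higher and 10 lower, with 48.1% of all genes. The genes called lower against the neighbourhood were not all the same with normexp. Sesn2, Rpl11, Gadd45a and Ddb2 lost that call, and Polh was called higher. Of all genes with normexp, 21.1% were higher and 27.0% lower by their own level. Against the neighbourhood 33.8% were higher and 27.9% lower. With lowess, 2 pathway genes were higher and 9 lower by their own level, against 17.6% and 16.2% of all genes. Against the neighbourhood 3 were higher and 11 lower, with 24.8% and 20.6% of all genes.

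Of the 36 neighbourhoods of these genes, 2 passed, both on chromosome 15 with Rrm2b, while 11.2% of all genes passed this test. Ep300, a histone acetyltransferase that serves p53 as coactivator, lay in a region at 0.25, 0.16, 0.36 and 0.30, a mean of 0.27 ± 0.08 (limma adjusted p = 0.0106). Gtse1, which binds p53 and dampens its activity in G2, lay in one at 0.27, 0.19, 0.39 and 0.31, a mean of 0.29 ± 0.09 (adjusted p = 0.0101). All 4 tumours were above 0 at both, and tumour 244 was highest. Like that of Rrm2b, both calls were lost without tumour 239 (adjusted p = 0.0778 for Ep300 and 0.0757 for Gtse1) and without tumour 252 (0.0720 and 0.0674).

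Of the genes below their neighbourhood, the lowest rested on 1 probe each or on part of their probes. Gls2, a glutaminase, read -0.98, -0.95, -1.11 and -0.84 by its 1 probe, -0.88 ± 0.05 from the neighbourhood (limma adjusted p = 8.62e-05). Bbc3, which encodes the death activator PUMA, read -0.76, -0.42, -0.89 and -0.80, also by 1 probe, a difference of -0.67 ± 0.15 (adjusted p = 0.00105). Sesn2, a sestrin like Sesn1, read -0.28, -0.82, -1.16 and -0.90 by 1 probe, a difference of -0.64 ± 0.34 (adjusted p = 0.00841). All 4 tumours were below 0 in each. Sesn2 lost its call with normexp (-0.10, adjusted p = 0.443).

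Polk, a polymerase that copies past damaged bases, had 7 probes and a difference of -0.52 ± 0.05 from its neighbourhood (limma adjusted p = 0.000400). It rested on 2 of them, at -1.43 and -2.72. The other 5 lay between -0.27 and 0.32, with a mean of 0.09. With the median of its probes the difference was -0.05 (adjusted p = 0.523).

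The other named genes differed less. Rpl11, a ribosomal protein that binds Mdm2, was at -0.46 ± 0.10 from its neighbourhood (limma adjusted p = 0.00116), and with normexp at 0.02 (adjusted p = 0.630). Gadd45a, a growth arrest gene, was at -0.23 ± 0.13 (adjusted p = 0.0166). Its call was lost with normexp (-0.03, adjusted p = 0.750) and without tumour 240 or 244 (-0.23 and -0.18, adjusted p = 0.0595 and 0.0610). Ddb2, which recognises ultraviolet damage, and Polh, another damage-bypass polymerase, were at -0.18 ± 0.07 and -0.18 ± 0.05 (adjusted p = 0.0119 and 0.00705). Ddb2 lost its call with normexp (0.01, adjusted p = 0.889) and without tumour 240 (-0.17, adjusted p = 0.0503). Polh lost it with lowess (-0.08, adjusted p = 0.141), and with normexp it turned to 0.16 and passed (adjusted p = 0.0148). The 2 that were higher were Tnfrsf10b, a death receptor, at 0.45 ± 0.09 (adjusted p = 0.00115), and Ppm1d, a phosphatase that opposes p53, at 0.21 ± 0.10 (adjusted p = 0.0110). With normexp neither of these passed (0.12 and 0.07, adjusted p = 0.0557 and 0.146), and without tumour 240 Ppm1d did not (0.20, adjusted p = 0.0515).

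**Figure D5:**
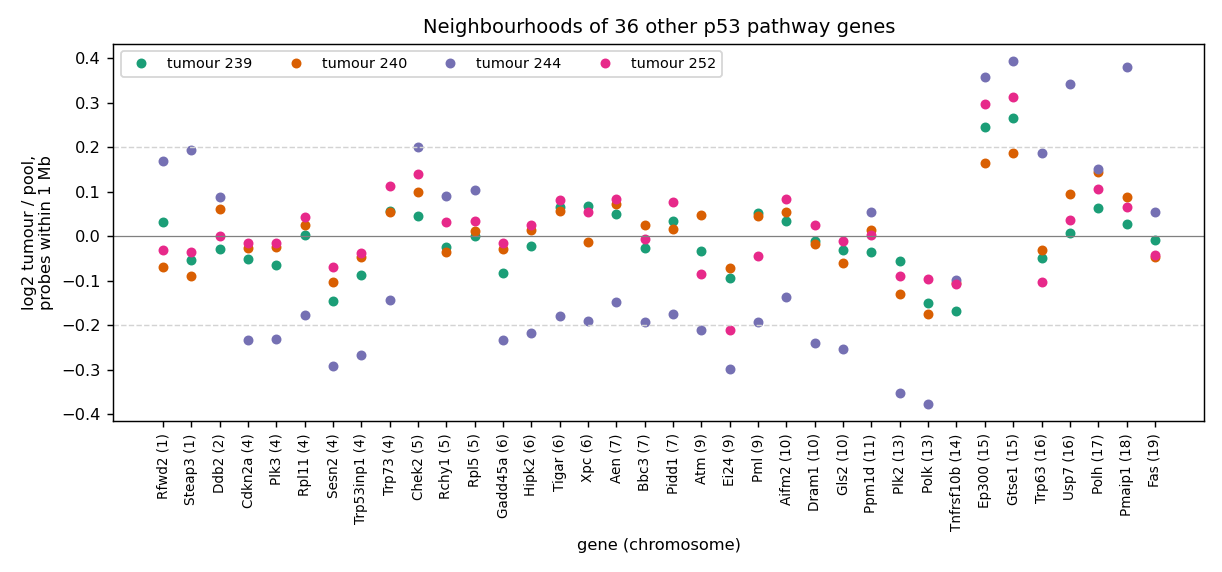
Log2 ratio of tumour over pool for the probes within 1 Mb of the 36 other p53 pathway genes, in chromosome order, with the chromosome in brackets. Points are the 4 tumours and dashed lines mark 0.2 and -0.2. In tumour 244, 12 neighbourhoods lay at or below -0.2 and 5 at or above 0.2, against 26.4% and 20.1% of all genes. Ep300 and Gtse1 were the 2 that passed the test over all 4 tumours, against 11.2% of all genes.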

How the data were processed

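Genomic DNA of 4 liver tumours (Cy5) and 1 pool of wild-type liver DNA (Cy3) was read on Agilent 2-colour mouse CGH arrays. Per the submitters' processing notes the scanner images went through Agilent Feature Extraction 12.0.0, while a later version stands in the file headers. The processed signal intensity of each colour was background-subtracted and dye-normalised by the authors' software, per the file headers. The authors' value table holds the log10 ratio of tumour over pool per spot. Positions are mm9.

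Control spots and outlier-flagged spots were dropped, spots of a probe averaged, and log2 of tumour over pool intensity, computed from the deposited intensities, centred on the autosomal median of its array, without loess or quantile normalization. Neighbourhoods held at least 5 probes within 1 Mb. Intercept-only fits used limma 3.58.1 in R 4.3.3 over all autosomal genes or probes, with Benjamini-Hochberg adjustment at 0.05. They were tested on simulated probes with independent noise and set shifts of genes and a region. That simulation lacked the recurring offsets of single probes. Tables and plots came from Python 3.11.15 (pandas 2.3.3, numpy 2.4.6, statsmodels 0.14.6, scipy 1.17.1, matplotlib 3.10.9). With 1 group there was no paired or batch comparison, and the number of arrays, 4, limits the precision.

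The 10 members and the list of 44 pathway genes were chosen with earlier results of these data known. Named were the members, Trp53 and Fah, the nearest gene on each side of a member with 3 or more probes, and at most 12 of the 15 pathway genes that passed against the neighbourhood or by it, by size. Pathway genes without an autosomal probe under their name, 8 in number, were not analysed. Symbols are the files' own. A gene that the rule names is not reported here. Alternatives were centring on the mode, normexp (offset 50), the authors' value table, lowess on intensity, a signal filter, outliers kept, robust limma, medians in place of means, windows of 0.25 and 5 Mb and the whole chromosome, genes with 3 or more probes, and leaving out each tumour. Normexp started from the unprocessed mean signals, so it also left out the dye normalisation of the main values.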

Additional observations from a re-analysis of the deposited data

Results flagged for a closer look

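Among 44 sets of 4 tumours tested for a value far from the other 3 (Dixon's criterion), 8 held one, and chance marks about 1 in 20. The sets are not independent: a gene's own level, neighbourhood and difference share values, and some genes share a chromosome. The count of 8 therefore cannot be judged against that rate. Of the 8, 3 were neighbourhoods in tumour 244: Mdm2 at -0.22 against 0.01 to 0.04 in the others, Mdm4 at 0.27 against 0.00 to 0.05, and Apaf1 at -0.26 against 0.00 to 0.02. The chromosome means of tumour 244 stand beside them, -0.25 for chromosome 10 and 0.21 for chromosome 1.

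Tumour 239 held 4 of them. Ccng1 read 0.12 by its own probe against -0.22 to -0.17, and 0.23 against its neighbourhood where the others lay from -0.13 to -0.11. Mdm4 lay -0.23 from its neighbourhood against -0.03 to -0.02. The neighbourhood of Tnfrsf10b was -0.17 against -0.11 to -0.10. The remaining one was Perp in tumour 240, at 0.21 by its own probe against 0.34 to 0.36.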

How the results depend on the processing

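Over 640 recomputations of 42 values of members and named pathway genes, 567 kept their direction and side of the threshold, 36 turned in sign, and of those that kept their sign 28 lost their call and 9 gained one. No paired analysis was possible because the tumours form 1 group. By their own level 3 members were called with lowess, with 33.8% of all genes. Of the 4 members with 3 or more probes 1 was called by its own level and 1 against the neighbourhood. Of all genes with 3 or more probes, 34.7% and 52.4% were. With normexp, 17 pathway genes were called by their own level (7 higher, 10 lower) and 21 against the neighbourhood (10 higher, 11 lower). Of all genes, 48.1% and 61.6% were called with normexp. Leaving out each tumour gave 0 to 5 called member neighbourhoods, with 0% to 39% of all genes. It gave 7 to 16 pathway genes against the neighbourhood, with 31.4% to 52.7% of all genes.

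With normexp, the own level became -0.25 for Mdm2, 0.062 for Ccng1, 0.020 for Apaf1, -0.32 for Perp and -0.079 for Sesn1. The neighbourhood became -0.011 for Mdm4 and -0.071 for Sesn1. The difference became -0.22 for Mdm2, 0.046 for Mdm4, 0.17 for Ccng1, -0.19 for Perp, -0.060 for Rrm2b, -0.0080 for Sesn1, 0.019 for Rpl11, 0.16 for Polh and 0.0064 for Ddb2. The cause was not tested.

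Sesn1, near 0, also turned in its own level with the signal filter (-0.066) and the median of probes (-0.13). Its neighbourhood turned with lowess (-0.0059), 5 Mb (-0.021) and the whole chromosome (-0.072), and its difference with the signal filter (-0.088), the median of probes (-0.15), 0.25 Mb (-0.032) and the median of neighbours (-0.0081). With the whole chromosome the Ccng1 neighbourhood was 0.028, and with 0.25 Mb the Apaf1 difference was -0.0025. The cause was not tested.

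Leaving out each tumour, the own level ran from -0.064 to 0.081 for Mdm4, -0.049 to 0.029 for Apaf1 and -0.024 to 0.10 for Sesn1. The neighbourhood ran from -0.059 to 0.029 for Mdm2, -0.084 to 0.0072 for Apaf1, -0.061 to 0.029 for Perp and -0.011 to 0.074 for Sesn1, and the Sesn1 difference from -0.027 to 0.027.

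Levels of 4 members rest on 1 probe and those of 2 on 2 probes, and no array compared normal with normal liver.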
